A study of Homo sapiens with 9 samples.

Results

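The mitosis, spindle and kinetochore genes described here are 50 named genes whose products carry a cell through chromosome segregation and division. They were taken by symbol, and all 50 matched 1 Ensembl row each of the 62257 rows in the deposited count and FPKM tables; all 50 passed the expression filter, which left 16947 rows to test. By function they comprise 9 kinases, cyclins and CDC25 phosphatases, 8 genes of the spindle checkpoint and anaphase-promoting complex, 12 centromere and kinetochore genes, 7 spindle genes, 8 genes of the spindle midzone and cytokinesis, and a group of 6 with chromosome structure genes, MKI67 and FOXM1. RNA was sequenced from A549, an established human lung adenocarcinoma line, in 9 libraries. The control group (3 libraries) received PBS, the ddp group (3) received apoptotic vesicles made after apoptosis was induced with cisplatin, and the sts group (3) received apoptotic vesicles made after induction with staurosporine, each for 96 h. All groups therefore share the cell line and the time, and the labels do not say which cells shed the vesicles, at what dose they were given, or whether replicates are separate cultures, and p-values here reflect only library-to-library spread, which may be technical.

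Entry into mitosis is driven by CDK1 bound to cyclins A and B, which CDC25 phosphatases activate, with the Aurora and Polo kinases acting at centrosomes and centromeres. Kinetochores assemble on CENPA-containing centromeric chromatin, attach to spindle microtubules, and signal through the BUB and MAD proteins until every chromosome is attached; CDC20 and UBE2C then let the anaphase-promoting complex mark securin (PTTG1) and cyclin B for degradation, and the midzone proteins guide the cleavage furrow. Transcripts of most of these genes peak late in the cell cycle. Their promoters are known for a CHR element, which the repressive DREAM complex and the activating MYBL2 and FOXM1 complexes use, and for CCAAT boxes bound by NF-Y.

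The promoter sequences are shown because these shared elements were not used to choose the genes. RefSeq promoter windows (GRCh38.p14, 250 bases before to 50 after an annotated start) were present for 41 of the 50 genes, as 52 windows, and not for FOXM1, TPX2, KNL1, CENPH, UBE2C, TTK, BIRC5, AURKA and BUB3. Windows were searched on both strands for CHR as TTTGAA or TTCGAA, for CCAAT, and for 2 E2F-type sites, TTCCCGC and TTTGGCG; words whose ends share letters can overlap, and each match was counted for its own word. Below are the 100 bases directly upstream of the start, 5′ to 3′ along the gene, with matches to CHR (TTTGAA, or TTCAAA on the other strand, or TTCGAA) and CCAAT (or ATTGG) in capitals. CCNB2, PLK1, KIF4A, KIF11 and CDC20 hold both elements in this stretch, CCNB1 holds only CCAAT boxes, and CDC25B is the gene that rose in the sts group. The stretches were picked as examples and do not give the shares among the genes. Those of PLK1, KIF11 and CDC25B lie inside the annotated gene, because the RefSeq start used lies downstream of the annotated gene start. Over their full windows, 22 of the 41 genes held both TTTGAA and CCAAT.
CCNB2, chr15:59105046-59105145, plus strand: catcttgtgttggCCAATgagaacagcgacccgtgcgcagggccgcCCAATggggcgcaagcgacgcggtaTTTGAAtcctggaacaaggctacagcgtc
PLK1, chr16:23678789-23678888, plus strand: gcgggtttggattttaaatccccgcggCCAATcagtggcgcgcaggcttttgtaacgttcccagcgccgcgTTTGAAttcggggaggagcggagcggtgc
KIF4A, chrX:70290004-70290103, plus strand: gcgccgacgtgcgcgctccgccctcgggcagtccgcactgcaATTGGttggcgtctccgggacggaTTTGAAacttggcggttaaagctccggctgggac
KIF11, chr10:92593030-92593129, plus strand: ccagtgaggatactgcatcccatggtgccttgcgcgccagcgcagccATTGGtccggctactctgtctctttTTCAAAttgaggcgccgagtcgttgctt
CDC20, chr1:43358881-43358980, plus strand: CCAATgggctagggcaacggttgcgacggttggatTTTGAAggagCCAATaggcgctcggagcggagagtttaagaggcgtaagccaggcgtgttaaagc
CCNB1, chr5:69167050-69167149, plus strand: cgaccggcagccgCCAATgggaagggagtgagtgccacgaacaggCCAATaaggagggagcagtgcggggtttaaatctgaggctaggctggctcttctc
CDC25B, chr20:3796210-3796309, plus strand: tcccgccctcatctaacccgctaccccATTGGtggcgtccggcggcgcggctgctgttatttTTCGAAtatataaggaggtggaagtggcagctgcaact

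TTTGAA lay in 31 of the 52 windows (59.6%), against 15.2% of all 35116 windows and 10.5% of the windows of genes with at least 10 counts in all 9 libraries. CCAAT lay in 71.2% of the members' windows, against 34.6% of all windows and 34.7% of those of the expressed genes. Of the E2F-type words, TTCCCGC was in 13.5% of the members' windows, against 6.6% of all windows and 9.6% of those of the expressed genes. TTTGGCG was in 5.8%, against 1.9% and 2.6%. The other CHR word, TTCGAA, was also in 5.8%, against 1.4% and 1.7%. The CDC25B sequence above is 1 of 4 windows of that gene, and it alone of the 4 held a CHR word, as TTCGAA. CENPI, CENPE and KIF2C had neither CHR word nor CCAAT in their windows. The only CENPI window, chrX:101100808-101101107, lies inside the gene, whose annotated start is at 101098188. The sequence before that start was therefore not searched for CENPI. The same limit holds for several genes with TTTGAA, among them KIF11, PLK1, CENPA and NUF2, whose only window also lies inside the annotated gene. These are counts of letters, not of bound sites.

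**Figure D1:**
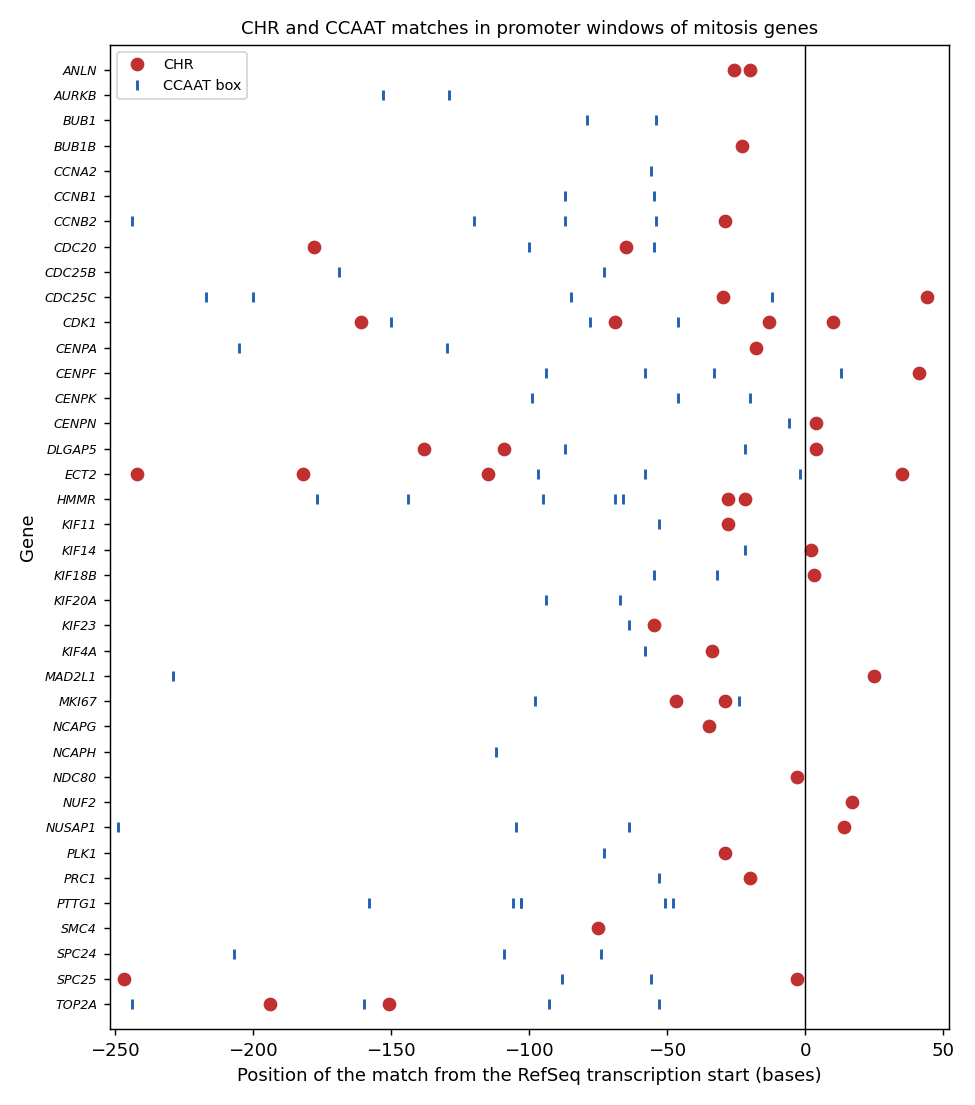
Positions of CHR (TTTGAA, red points) and CCAAT (blue ticks) matches on either strand, in bases from the RefSeq transcription start at 0, for each mitosis gene with a match in any of its windows. Of 43 CHR matches, 19 lie within the 60 bases before the start and 11 after it. Matches of several windows of 1 gene are drawn on 1 row. A site in overlapping windows, as for CDC25C and ECT2, is counted and drawn once per window.

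Library totals ran from 13799950 to 16526399 counts, and mitochondrial genes took 11.4% to 12.5% of counts in control, 12.1% to 13.1% in ddp and 12.7% to 13.1% in sts libraries. Of the 8 epithelial markers KRT8 and KRT18 were abundant in all libraries, while EPCAM was at 3.58 CPM (CPM is counts scaled by library total and TMM factor) in control. The summed level of these markers (sums here are scaled by library total alone) was 11216 to 12267 CPM in control, 6924 to 7516 in ddp and 7294 to 8751 in sts libraries, most of it KRT8 and KRT18. Among the other markers, KRT19 and CLDN4 went against the sum in sts, where they were called higher (log2 fold changes of 0.36 and 0.86). EPCAM (-1.12), CDH1 (-0.91) and KRT7 (-0.70) were called lower there. In ddp CDH1 was called lower (-0.63), while KRT7 had 1288 CPM against 1157 in control without passing the test. The 8 leukocyte markers summed to 10.9 to 17.1 CPM in control, 14.4 to 16.0 in ddp and 21.2 to 26.9 in sts libraries, nearly all of it CD14 and ITGAM, with PTPRC at 0 in 8 of the libraries and CD3E in 8. The 8 fibroblast markers summed to 3.20 to 3.61 CPM in control, 3.39 to 3.64 in ddp and 3.66 to 4.35 in sts libraries. The 6 endothelial markers summed to 1.32 to 1.74 CPM in control, 1.15 to 1.38 in ddp and 2.83 to 4.52 in sts libraries, with CLEC14A at 0 in all. PECAM1, which leukocytes and platelets also carry, was called higher in sts, at 0.16 CPM in control and 2.51 in sts (edgeR adjusted p = 1.08e-06). The part of these shifts in the results below was not tested.

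Per length, the 50 genes covered a wide range in control cells. TOP2A, the topoisomerase that untangles sister chromatids, was highest at 147 ± 10.4 FPKM (mean ± SD, n = 3; fragments per length and depth), followed by CCNB1 at 139 ± 8.46 and UBE2C at 92.8 ± 3.57. The mean ± SD ranges of TOP2A and CCNB1 overlap, as do those of UBE2C and the next gene, ECT2, at 86.3 ± 5.16. The median gene was at 23.0 FPKM, 42 genes were above 10 FPKM and 9 above 50. At the low end stood KNL1 at 7.58 ± 1.04, SPC25 at 2.16 ± 0.176, PRC1 at 0.54 ± 0.0627 and NUSAP1 at 0.33 ± 0.114 FPKM. NUSAP1 had 12 to 34 counts per library and PRC1 27 to 54.

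Both low values fall on genes whose exons are shared with another annotated gene. In GENCODE v29, 62.2% of the NUSAP1 exon bases are shared with the same-strand row ENSG00000285920, which held 0 counts in all 9 libraries, and 58.4% of those of PRC1 are shared, with ENSG00000284946 (165 to 237 counts) and PRC1-AS1. ENSG00000285920 and ENSG00000284946 lie on the same strand as NUSAP1 and PRC1, so strand would not separate reads from the shared bases. The library kit is not stated to keep the strand, so reads from antisense genes cannot be told apart either. A further 6 members share over 10% of their exon bases: NCAPG (33.1%), SMC4 (25.6%), CENPN (22.8%), FOXM1 (15.9%), PLK1 (12.5%) and BUB1B (10.2%); 30 members share none. Pseudogenes are named after 12 members, 4 of them after UBE2C, and no label says how reads shared with such copies were counted. NUSAP1 and PRC1 are therefore reported as uncertain.

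Across the whole group, staurosporine-induced vesicles were accompanied by lower mitotic transcripts nearly throughout, and cisplatin-induced vesicles by a smaller and partial decrease. Against control, 41 of the 50 genes fell in the sts group, 1 rose (CDC25B) and 8 did not pass the test (edgeR's quasi-likelihood test, Benjamini-Hochberg adjusted p under 0.05, over all 16947 genes). Of all genes tested, 16.8% were called lower and 15.9% higher in that comparison. The median log2 fold change of the 50 was -0.46, beside 0.013 over all genes. In the ddp group 12 fell, 1 rose (AURKB) and 37 did not pass, with 8.32% of all genes called lower and 7.16% higher; the median of the 50 was -0.10, beside -0.00328 over all genes. Values given with a gene below are log2 fold changes against control, with ± the standard error (SE), unless another comparison is named. Between the vesicle groups, 40 were lower in sts than in ddp, 1 was higher (CDC25B) and 9 did not pass, with 19.5% of all genes called lower and 20.2% higher; the median was -0.35, beside 0.0268.

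The summed level of the 50 genes stood in order without overlap: 6951 to 7439 CPM in control, 6524 to 6612 in ddp and 4957 to 5398 in sts libraries (scaled by library totals alone). These sums are 91.6% and 72.8% of the control mean for ddp and sts. TOP2A made up 13.2% of the control sum. In bulk RNA, fewer cells in mitosis and less of these transcripts per cell cannot be told apart. The sts and ddp comparisons share the control libraries, so their counts are given side by side and no overlap between them is read as a result. The number of genes called lower in ddp varied with single libraries: it was 7 without control replicate 2 and 8 without ddp replicate 2.

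**Figure D2:**
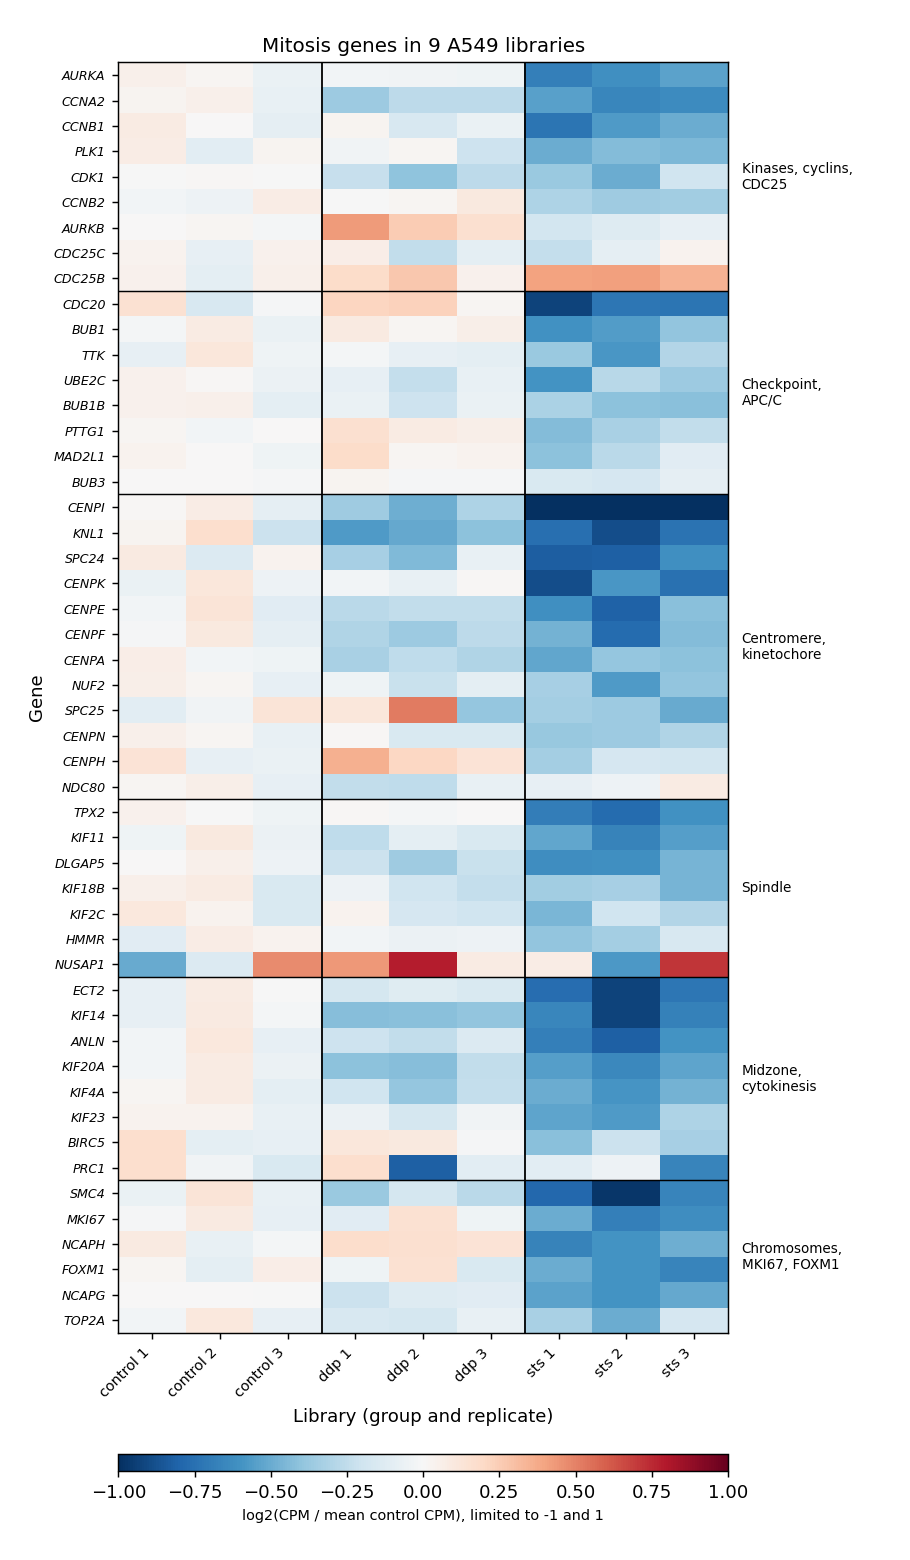
Level of each of the 50 mitosis genes (rows, grouped by function) in each of the 9 libraries (columns), as log2 of CPM over the control mean, with colours limited to -1 and 1. The sts columns are blue for most rows and red for CDC25B, and the ddp columns are paler and mixed.

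Among the kinases, cyclins and CDC25 phosphatases, 6 of 9 fell in the sts group and 1 rose; in the ddp group 2 fell and 1 rose. Their summed level was 80.6% of control in sts and 95% in ddp. AURKA, the Aurora kinase of centrosome maturation and spindle assembly, was at 175, 171 and 161 CPM in the control libraries, 166, 164 and 164 in the ddp libraries and 105, 110.3 and 117 in the sts libraries. All 3 sts libraries were below every other library, and ddp lay within the control range. AURKA fell by 0.61 on the log2 scale in sts (SE 0.07, adjusted p = 4.89e-08), and its difference in ddp was -0.04 ± 0.07 (SE), adjusted p = 0.806. CCNB1, the cyclin B partner of CDK1, was at 362, 343 and 322 CPM in the control libraries, 348, 306 and 327 in the ddp libraries and 206, 231 and 243 in the sts libraries. It too separated sts from both other groups (-0.59 ± 0.08, adjusted p = 1.52e-07) while ddp and control overlapped (-0.07). PLK1, the Polo kinase, was at 68.8, 60.9 and 66.8 CPM in the control libraries, 64.1, 66.3 and 56.6 in the ddp libraries and 46.4, 48.5 and 47.9 in the sts libraries. Its sts libraries were lowest without overlap (-0.46 ± 0.08, adjusted p = 5.81e-05) and ddp overlapped control (-0.07). CCNB2, the second B cyclin, also fell in sts (-0.34), with 0.04 in ddp.

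CDK1 and CCNA2 were lower in both vesicle groups. CDK1, the catalytic engine of mitosis, was at 232, 235 and 232 CPM in the control libraries, 199, 176 and 194 in the ddp libraries and 180.5, 165 and 203 in the sts libraries. The ddp and sts libraries overlapped each other and both lay below control: -0.30 ± 0.08, adjusted p = 0.00645 in ddp and -0.35 ± 0.08, adjusted p = 0.000491 in sts. The difference between sts and ddp was -0.06 (95% interval -0.21 to 0.10, adjusted p = 0.603). CCNA2, cyclin A2, was at 124, 126 and 116 CPM in the control libraries, 95.3, 102 and 102 in the ddp libraries and 83.9, 77.6 and 79.3 in the sts libraries. Here the 3 groups stood in order without overlap, -0.29 in ddp and -0.61 in sts, and sts was lower than ddp (-0.31 ± 0.08, adjusted p = 0.00126). The ddp call of CDK1 did not pass without ddp replicate 2 (adjusted p = 0.0598).

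CDC25B and AURKB each rose in 1 vesicle group. CDC25B, a phosphatase that activates CDK1 at mitotic entry, was at 184, 167 and 185 CPM in the control libraries, 203, 215 and 184 in the ddp libraries and 236, 237 and 228 in the sts libraries. Every sts library lay above every ddp and control library (0.39 ± 0.07, adjusted p = 9.85e-05 against control), and ddp overlapped control (0.17 ± 0.07, adjusted p = 0.126). It was also higher in sts than in ddp (0.22 ± 0.07, adjusted p = 0.0178), a call that did not pass without ddp replicate 3 (adjusted p = 0.15) or sts replicate 1 (0.061). AURKB, the kinase of the chromosomal passenger complex, is singled out after its values were seen as the only gene higher in ddp. It was at 52.5, 53.1 and 51.8 CPM in the control libraries, 70.5, 62.5 and 58.8 in the ddp libraries and 46.2, 48.0 and 49.7 in the sts libraries, so that ddp lay above both other groups. The increase in ddp was 0.28 ± 0.08, adjusted p = 0.0171; it did not pass without control replicate 1 (0.051), control replicate 3 (0.0685) or ddp replicate 1 (0.162). AURKB did not pass in sts (-0.13, 95% interval -0.30 to 0.04), nor did CDC25C, the other CDC25 member (-0.10, -0.31 to 0.12).

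The spindle checkpoint and anaphase-promoting complex genes gave 7 of 8 that fell in sts against control, 7 of 8 that were lower in sts than in ddp, and 0 of 8 that passed in ddp against control by edgeR. At an unadjusted p under 0.05 the ddp count was also 0, and DESeq2, limma-voom and the test on log2(FPKM + 1) called 0 of 8 each. Their ddp estimates ran from -0.13 (UBE2C) to 0.16 (CDC20). Their summed level was 79.5% of control in sts and 100.1% in ddp. CDC20, which activates the anaphase-promoting complex, was at 69.8, 56.3 and 62.4 CPM in the control libraries, 73.0, 73.6 and 63.6 in the ddp libraries and 33.0, 38.2 and 37.9 in the sts libraries. The sts libraries were lowest by a wide gap, while ddp and control overlapped. It fell by 0.79 in sts (SE 0.09, adjusted p = 3.63e-08), and was the gene with the lowest estimate in sts against ddp (-0.95 ± 0.09, adjusted p = 5.54e-10). BUB1, the checkpoint kinase at kinetochores, was at 146, 158 and 142 CPM in the control libraries, 158, 151 and 155 in the ddp libraries and 97.9, 101 and 113 in the sts libraries. Its sts libraries were again below all others (-0.52 ± 0.08, adjusted p = 2.12e-06) and ddp overlapped control (0.06).

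The remaining checkpoint genes differed by less. BUB1B (-0.38), TTK (-0.41), UBE2C (-0.41), PTTG1 (-0.33) and MAD2L1 (-0.26) fell in sts, the last of these losing its call without sts replicate 1 (adjusted p = 0.0898). BUB3, which recruits BUB1 and BUBR1 to kinetochores, did not pass (-0.14, 95% interval -0.27 to 0.00, adjusted p = 0.125) although its sts libraries lay below all others, at 251, 251 and 249 CPM in the control libraries, 256, 248 and 249 in the ddp libraries and 226, 223 and 234 in the sts libraries. DESeq2 called it lower in sts (adjusted p = 0.0309).

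Of the 12 centromere and kinetochore genes, 9 fell in sts and 5 in ddp. This is the largest of the 6 role groups and held the largest number of ddp calls. The midzone and cytokinesis group held 3 of 8. The summed level of the 12 genes was 68.1% of control in sts and 83.5% in ddp. CENPI, a component of the constitutive centromere network, was at 90.3, 94.3 and 84.2 CPM in the control libraries, 70.1, 63.8 and 72.3 in the ddp libraries and 41.6, 40.9 and 43.8 in the sts libraries. The 3 groups did not overlap and stood in that order. CENPI fell by 1.09 in sts (SE 0.08, adjusted p = 2.62e-12), the lowest estimate of the 50 genes, and by 0.38 in ddp (SE 0.08, adjusted p = 0.000773). KNL1, the scaffold that docks the BUB proteins, was at 79.8, 88.1 and 67.5 CPM in the control libraries, 52.9, 55.2 and 59.0 in the ddp libraries and 46.6, 42.4 and 47.2 in the sts libraries. Its groups also did not overlap, and it had the lowest ddp estimate of the 50 (-0.49 ± 0.09, adjusted p = 0.000123), with -0.79 ± 0.09, adjusted p = 2.24e-08 in sts. KNL1 was lower in sts than in ddp (-0.30), which did not pass without ddp replicate 3 (adjusted p = 0.0528).

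CENPA and CENPF also fell in both vesicle groups, and CENPE fell in sts with a ddp call that most alternatives did not keep. CENPA, the centromeric histone H3 variant, was at 61.5, 57.7 and 56.9 CPM in the control libraries, 46.8, 49.2 and 47.5 in the ddp libraries and 41.0, 44.9 and 44.1 in the sts libraries. Control lay above all vesicle libraries (-0.29 ± 0.08, adjusted p = 0.0116 in ddp, -0.44 ± 0.08, adjusted p = 9.2e-05 in sts), and sts against ddp did not pass (-0.14, adjusted p = 0.182). CENPF, a large outer kinetochore protein, was at 414, 447 and 392 CPM in the control libraries, 338, 324 and 348 in the ddp libraries and 301, 245 and 309.5 in the sts libraries. The groups stood in order without overlap (-0.31 in ddp, -0.55 in sts). CENPE, a kinetochore motor, fell by 0.60 in sts and had its ddp estimate of -0.25 just inside the threshold (adjusted p = 0.0467). Several of these ddp calls did not pass without 1 library: CENPA without control replicate 1 (adjusted p = 0.071) or ddp replicate 1 (0.0556), CENPF without control replicate 2 (0.0521), and CENPE without each of 6 libraries in turn (0.0609 to 0.247). In all, the ddp call of CENPE did not pass in 14 of 20 alternatives, among them DESeq2 (0.0852), limma-voom (0.069), RLE scaling (0.0542), no filter (0.0527) and log2(FPKM + 1) (0.163). That of CENPF did not pass on log2(FPKM + 1) either (0.0664).

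Other kinetochore genes fell in sts without passing in ddp. SPC24 (-0.75) and CENPK (-0.73) fell most among them, beside NUF2 (-0.43) and CENPN (-0.35). SPC24 also had a ddp estimate of -0.27 that passed without ddp replicate 3 (adjusted p = 0.0248). NDC80, CENPH and SPC25 did not pass in sts: NDC80, the microtubule-binding partner of NUF2, had an estimate of -0.02 (95% interval -0.22 to 0.18), CENPH -0.23 (-0.43 to -0.03) and the low-count SPC25 -0.40 (-0.92 to 0.12). CENPH was lower in sts than in ddp (-0.47 ± 0.10, adjusted p = 0.000244).

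Of the 7 spindle genes, 6 fell in sts and 1 (DLGAP5) in ddp, with summed levels of 69.9% and 92.2% of control. TPX2, which activates AURKA on spindle microtubules, was at 256, 248 and 242 CPM in the control libraries, 251, 245 and 249.7 in the ddp libraries and 154, 146 and 164 in the sts libraries. The sts libraries lay far below the rest (-0.69 ± 0.07, adjusted p = 2.23e-09), and ddp and control overlapped (-0.00, 95% interval -0.14 to 0.14). KIF11, the motor that separates the poles, was at 142, 156 and 140.0 CPM in the control libraries, 123, 136 and 131 in the ddp libraries and 102, 91.8 and 99.6 in the sts libraries. Its sts libraries were below all others (-0.58 ± 0.08, adjusted p = 3.35e-07); ddp lay below control without overlap yet did not pass (-0.17 ± 0.08, adjusted p = 0.145). DLGAP5, a microtubule-stabilizing spindle protein, was at 129, 133 and 124 CPM in the control libraries, 110.5, 100.3 and 110.0 in the ddp libraries and 83.7, 84.1 and 92.9 in the sts libraries. Its groups stood in order (-0.27 ± 0.08, adjusted p = 0.0141 in ddp, -0.56 ± 0.08, adjusted p = 5.15e-07 in sts), and the ddp call did not pass without control replicate 2 (0.0685) or ddp replicate 2 (0.0949).

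KIF18B (-0.38), KIF2C (-0.31) and HMMR (-0.30) fell in sts by less; KIF2C did not pass without sts replicate 1 (adjusted p = 0.0543). NUSAP1, a microtubule-bundling protein and the member with the lowest measured level, was at 0.846, 1.09 and 1.67 CPM in the control libraries, 1.63, 2.07 and 1.27 in the ddp libraries and 1.26, 0.809 and 1.97 in the sts libraries. Its libraries overlapped in every comparison, and its intervals were wide (-0.66 to 0.99 in sts and -0.34 to 1.27 in ddp), so no difference was detectable at these counts.

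The midzone and cytokinesis genes held 7 of 8 genes that fell in sts and 3 of 8 in ddp, with summed levels of 65.2% and 88.5% of control, the lowest sts share of the 6 role groups. ECT2, the exchange factor that activates RHOA at the furrow, was at 453, 507 and 477 CPM in the control libraries, 425, 441 and 430.2 in the ddp libraries and 282, 252 and 291 in the sts libraries. Every sts library was lower than every ddp library, and every ddp library lower than control. ECT2 fell by 0.80 in sts (SE 0.07, adjusted p = 1.34e-10), but ddp did not pass (-0.15 ± 0.07, adjusted p = 0.173). KIF14, a midbody kinesin, was at 95.5, 108 and 99.7 CPM in the control libraries, 75.1, 75.4 and 76.9 in the ddp libraries and 64.1, 53.1 and 63.2 in the sts libraries. It fell in both, -0.41 ± 0.08, adjusted p = 0.000413 in ddp and -0.75 ± 0.08, adjusted p = 1.16e-08 in sts, with no overlap between any 2 groups.

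KIF20A and KIF4A, midzone kinesins, also fell in both groups. KIF20A was at 96.6, 104 and 94.7 CPM in the control libraries, 74.0, 73.3 and 82.8 in the ddp libraries and 67.0, 62.9 and 68.3 in the sts libraries. It changed by -0.36 ± 0.08, adjusted p = 0.0014 in ddp and by -0.57 in sts. KIF4A was at 111, 115 and 102 CPM in the control libraries, 95.1, 83.4 and 92.5 in the ddp libraries and 77.6, 72.9 and 78.9 in the sts libraries. KIF4A changed by -0.28 ± 0.08, adjusted p = 0.0139 in ddp and by -0.52 in sts. Groups did not overlap for either gene, but the ddp call of KIF4A did not pass without control replicate 1 (0.0523), control replicate 2 (0.0842) or ddp replicate 2 (0.102). ANLN (-0.70), KIF23 (-0.47) and BIRC5 (-0.32) fell in sts; the ddp estimate of ANLN, an actin-binding furrow protein, was -0.20 ± 0.07, adjusted p = 0.0683. ANLN passed in ddp without sts replicate 2 (0.0456). PRC1, the midzone bundler with 27 to 54 counts, did not pass in any comparison (95% interval -0.84 to 0.34 in sts).

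All 6 genes of the chromosome group fell in sts and 1 (SMC4) in ddp, with summed levels of 73.9% and 91.8% of control. SMC4, a core condensin subunit, was at 156, 178 and 154 CPM in the control libraries, 126, 145 and 135 in the ddp libraries and 94.7, 82.8 and 103 in the sts libraries. The groups stood in order without overlap, -0.27 ± 0.08, adjusted p = 0.0224 in ddp and -0.80 ± 0.08, adjusted p = 3.59e-09 in sts; the ddp call did not pass without control replicate 2 (0.167), ddp replicate 1 (0.144) or ddp replicate 3 (0.0586). NCAPH and NCAPG, condensin I subunits, fell by 0.58 and 0.55 in sts. MKI67, the antigen used to score proliferating cells, was at 248, 265 and 236 CPM in the control libraries, 230.3, 277 and 242 in the ddp libraries and 177, 156 and 163 in the sts libraries. Its sts libraries were lowest (-0.60 ± 0.08, adjusted p = 2.56e-07), and ddp spanned the control range (0.00, 95% interval -0.16 to 0.16).

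FOXM1, a transcription factor that activates many late cell-cycle genes, was at 49.5, 45.5 and 51.1 CPM in the control libraries, 47.3, 54.2 and 43.8 in the ddp libraries and 34.6, 32.2 and 30.8 in the sts libraries. It fell in sts (-0.58 ± 0.09, adjusted p = 7.82e-06) and overlapped control in ddp (-0.01, 95% interval -0.19 to 0.18). TOP2A had the smallest sts change of its group (-0.33), with means of 754 ± 85.4 CPM (SD, n = 3) in sts against 946 ± 62.4 in control. TOP2A was lower in sts than in ddp by 0.19 with adjusted p = 0.0475, and that call did not pass without sts replicate 2 (0.284) or ddp replicate 3 (0.158), ddp replicate 1 (0.0751) or sts replicate 1 (0.0763). It did not pass in 10 of 20 alternatives in all, among them upper-quartile scaling (0.0977), log2(FPKM + 1) (0.0787) and the fit on the compared groups alone (0.0514). The ddp call of SMC4 did not pass on log2(FPKM + 1) (0.113).

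**Figure D3:**
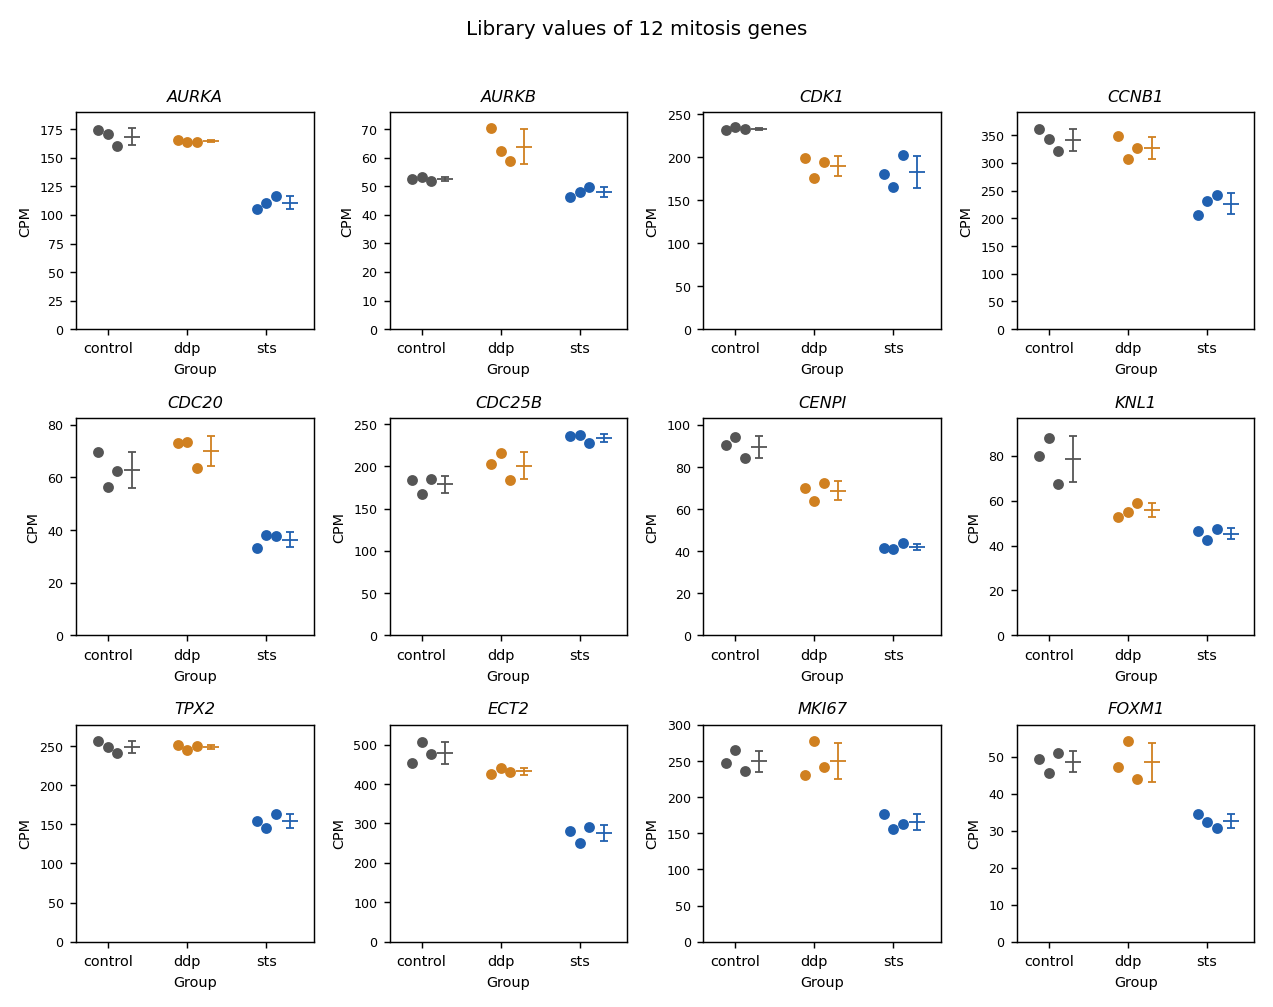
CPM of 12 of the mitosis genes in each library (points), with the group mean and SD beside them (bars), for control, ddp and sts; each vertical axis starts at 0. AURKA, CCNB1, CDC20, TPX2, MKI67 and FOXM1 are lowest in sts, with ddp overlapping control, CENPI and KNL1 step down through ddp to sts, CDC25B is highest in sts and AURKB is highest in ddp.

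Between the vesicle groups, several of the smaller differences depended on single libraries and on other settings. The calls of CDC25B, CENPF, CENPN, HMMR, KIF18B, KIF20A, KIF4A, KNL1, TOP2A and UBE2C did not pass when 1 library was left out. For CENPF they did not pass without ddp replicate 3 (adjusted p = 0.0575) or sts replicate 2 (0.149), and for CENPN without ddp replicate 1 (0.0783). HMMR and UBE2C lost theirs without sts replicate 1 (0.0676 and 0.0746), and KIF18B without ddp replicate 1 (0.213), sts replicate 1 (0.0612) or sts replicate 3 (0.146). KIF20A lost its call without ddp replicate 3 (0.178) or sts replicate 2 (0.105), and KIF4A without ddp replicate 1 (0.08), ddp replicate 3 (0.053) or sts replicate 2 (0.058). In the other direction KIF2C passed without control replicate 3 (0.0493) or sts replicate 2 (0.0303), and SPC25 without ddp replicate 3 (0.0261). Other settings also ended calls: upper-quartile scaling those of KIF18B (0.0906) and KIF20A (0.0661), limma-voom that of KIF18B (0.0593), and no filter on counts those of KIF18B (0.0562) and CDC25B (0.0805).

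**Figure D4:**
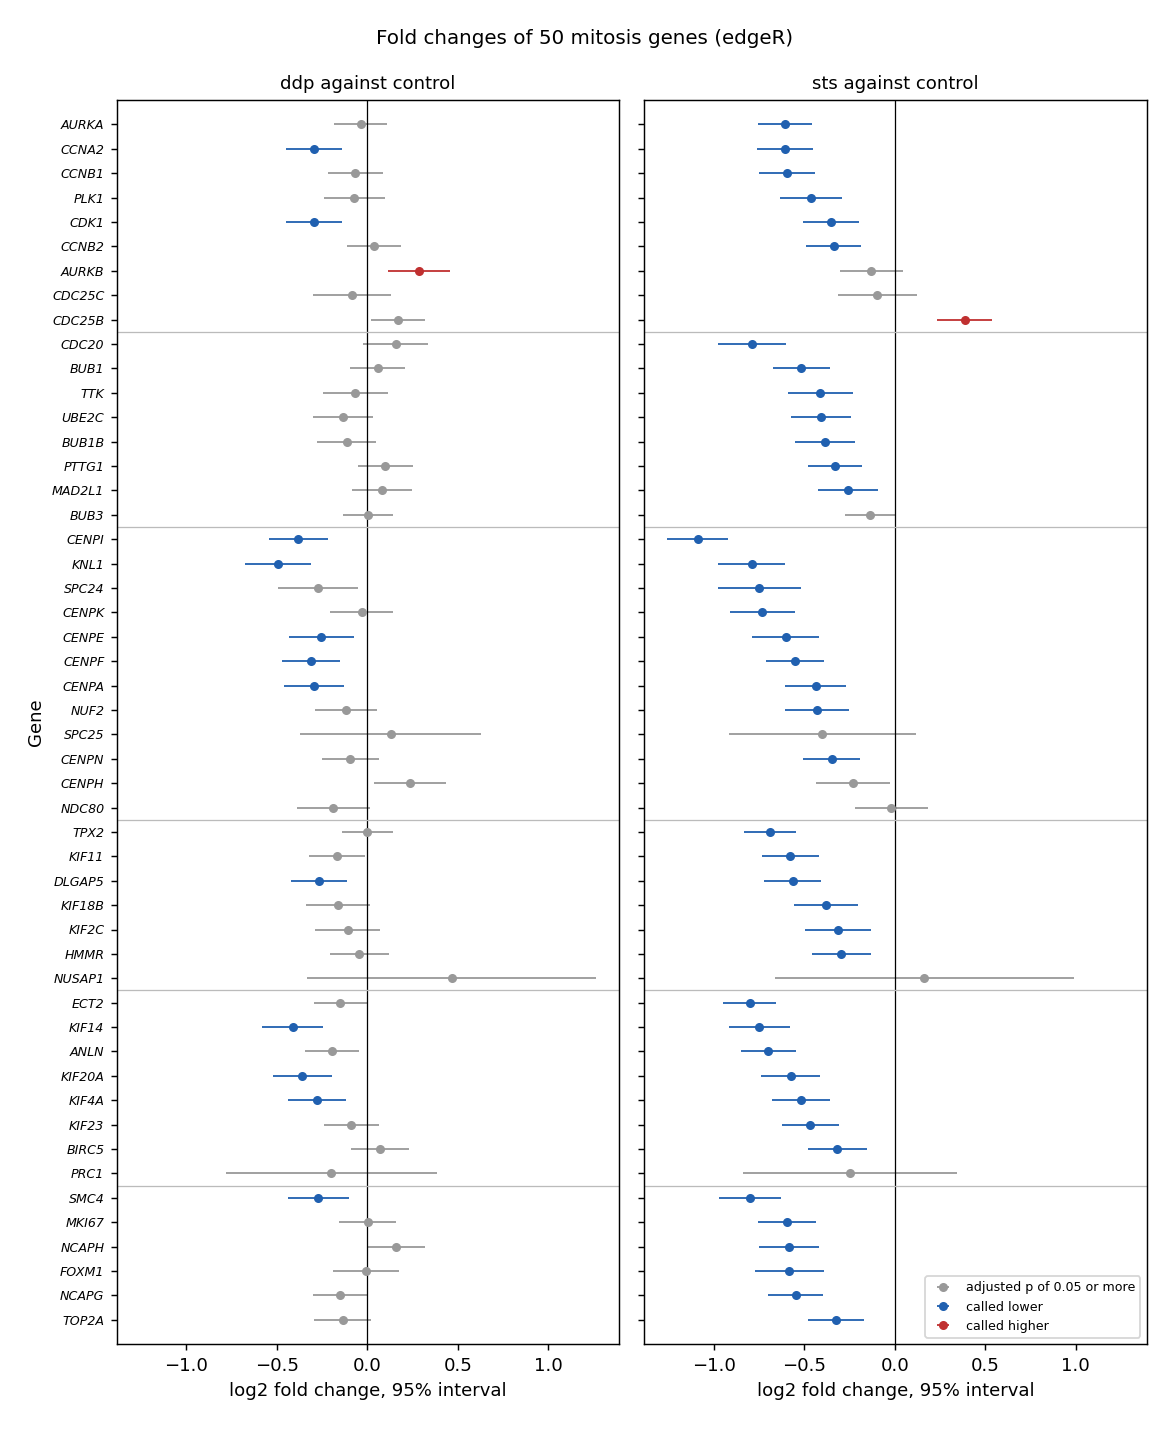
Estimated log2 fold change of each of the 50 mitosis genes against control with its 95% interval, for ddp (left) and sts (right), ordered as in the heat map by function; blue is called lower, red called higher and grey has an adjusted p of 0.05 or more. In sts 41 genes are blue and CDC25B is red, in ddp 12 are blue and AURKB is red.

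The longer members had somewhat lower estimates against control. Spearman's rho between gene length and log2 fold change over the 50 genes was -0.302 in ddp and -0.282 in sts, against -0.032 and -0.094 over all genes. In sts against ddp it was -0.022 over the 50 genes and -0.067 over all genes; genes share libraries, so this is a description with no p. Split at 4386 bases, the 25 shorter members had a median ddp change of -0.045 and the 25 longer ones -0.149, and in sts the medians were -0.399 and -0.547. In sts against ddp they were -0.313 and -0.349. All of the 5 genes with the largest decreases in sts (CENPI, ECT2, SMC4, CDC20 and KNL1) except CDC20 were longer than 4386 bases by the deposited lengths. In GENCODE v29, CENPI has 4321 exon bases, below that split.

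The promoter words were set beside the response. Of the 28 genes with TTTGAA in a window, 23 fell in sts with a median log2 change of -0.433; of the 13 with a window but without it, 11 fell with a median of -0.583. In ddp these were 7 and 4 genes, with medians of -0.143 and -0.066. The split used TTTGAA alone, and BUB1 and CDC25B, among the 13, hold the other CHR word, TTCGAA. The 3 genes with neither CHR word nor CCAAT in the windows searched (CENPE, CENPI and KIF2C) all fell in sts. The CENPI window lies inside the gene, so the sequence before its annotated start was not searched. This holds also for genes with TTTGAA such as KIF11, PLK1, CENPA and NUF2. No test was made of these counts.

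Other mitotic and cell-cycle genes came from lists of 161 genes, of which 153 were tested. The lists include DREAM, CDK inhibitor and G1-to-S genes. Pooled, the genes gave 96 lower and 8 higher in sts, 11 lower and 11 higher in ddp, and 99 lower and 11 higher in sts against ddp. Their medians were -0.35 in sts and 0.00505 in ddp. Of all genes tested, 16.8% were called lower and 15.9% higher in sts, and 8.32% and 7.16% in ddp. In sts against ddp those shares were 19.5% and 20.2%. The pooled ddp counts were thus near the shares over all genes, but they mix lists that differed. Of the 11 higher in ddp, 9 were G1-to-S genes, and of the 11 lower, 3 were CDK inhibitors. Among other kinetochore genes 12 of 24 fell in sts, including DSN1 (-0.58), SKA2 (-0.65) and ZWINT (-0.48). Checkpoint and passenger-complex genes gave 10 of 13, among them SGO2, the protector of centromeric cohesion (-0.82), SPDL1 (-0.72) and KNTC1 (-0.67). The condensins gave 5 of 5, with NCAPG2 at -0.64, NCAPD3 at -0.59 and SMC2 at -0.55. Of the 17 subunits and regulators of the anaphase-promoting complex 5 fell and 1 rose, with ANAPC1 lowest (-0.64), beside ANAPC7 (-0.31) and UBE2S (-0.51).

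Of the other spindle genes 16 of 21 fell and 1 rose in sts, and 4 fell in ddp; PLK4, the kinase of centriole duplication (-0.82), FAM83D (-0.79) and SPAG5 (-0.73) had the smallest p. Other cytokinesis genes gave 8 of 12 lower and 2 higher in sts: CEP55, the midbody organizer (-0.75), and DEPDC1 (-0.71) fell. CHMP4C, an abscission checkpoint ESCRT-III subunit, rose from 11.3, 10.1 and 11.2 CPM in control to 22.8, 21.3 and 18.0 in sts libraries (0.93 ± 0.13, adjusted p = 1.08e-06), where ddp stayed at 9.82, 10.5 and 11.6.

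Regulators of mitotic entry fell in 11 of 15 cases in sts and in 1 in ddp. CDC25A, the phosphatase of CDK2 and CDK1, was at 15.7, 16.8 and 13.2 CPM in the control libraries, 20.8, 18.3 and 19.2 in the ddp libraries and 6.87, 7.82 and 5.56 in the sts libraries. It fell in sts (-1.17 ± 0.15, adjusted p = 1.06e-07), where CDC25B rose, and the ddp estimate was 0.35 ± 0.13, adjusted p = 0.0752. MELK (-0.60) and PBK (-0.61) fell as well. Of the 20 DREAM, MYB and E2F genes tested 12 fell and 2 rose in sts: MYBL2, the activating partner of the MuvB core, was at 82.6, 73.2 and 63.6 CPM in the control libraries, 74.1, 66.0 and 68.5 in the ddp libraries and 41.4, 45.9 and 39.8 in the sts libraries. MYBL2 fell in sts (-0.79 ± 0.09, adjusted p = 2.95e-08), and its ddp estimate was -0.07. LIN54, the MuvB subunit that binds CHR DNA, fell in sts (-0.37 ± 0.10, adjusted p = 0.00443), and the repressor-type factors E2F7 and E2F8 fell by 0.86 and 1.10. LIN37 went the other way, with the highest sts estimate of this list (0.78) and the lowest ddp estimate (-0.35).

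Of the CDK inhibitors, CDKN1A and CDKN1B fell in ddp and rose in sts. CDKN1B (p27) was at 48.5, 40.6 and 49.5 CPM in the control libraries, 25.7, 33.1 and 25.2 in the ddp libraries and 79.6, 71.9 and 80.0 in the sts libraries. It fell in ddp (-0.72 ± 0.10, adjusted p = 4.44e-06) and rose in sts (0.74 ± 0.10, adjusted p = 4.38e-07), and differed between the vesicle groups by 1.46 ± 0.10, adjusted p = 7.52e-13. CDKN1A (p21), the p53-inducible inhibitor, was at 66.4, 62.8 and 66.9 CPM in the control libraries, 50.1, 61.8 and 50.9 in the ddp libraries and 83.8, 93.8 and 89.1 in the sts libraries. It was lower in ddp (-0.27 ± 0.09, adjusted p = 0.0305) and higher in sts (0.44 ± 0.09, adjusted p = 0.000107). The calls of these inhibitors were not followed through the alternatives. CDKN2C (p18) fell in ddp from 46.9, 39.4 and 39.3 CPM to 23.3, 24.4 and 26.4 (-0.76 ± 0.09, adjusted p = 2.7e-07), and in sts was 47.3, 47.3 and 47.9 (0.18, adjusted p = 0.132). CDKN2A and CDKN2B had 0 counts in every library, which sets no fold.

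Genes of the G1-to-S transition gave 9 of 22 that rose and 1 that fell in ddp, and 17 that fell in sts. MCM10, a replication initiation factor, was at 69.0, 72.8 and 64.1 CPM in the control libraries, 86.5, 90.6 and 97.3 in the ddp libraries and 27.3, 28.1 and 27.6 in the sts libraries. It rose in ddp (0.41 ± 0.08, adjusted p = 0.000295) and fell in sts (-1.31 ± 0.09, adjusted p = 7.81e-14). CDC6, the origin-licensing factor, behaved likewise (0.28 in ddp, -0.91 in sts), whereas CCND3, a D-type cyclin, fell in both (-0.43 and -1.05). The fractions of all genes called in ddp (8.32% lower, 7.16% higher) and sts (16.8% lower, 15.9% higher) are the background for these counts as well.

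**Figure D5:**
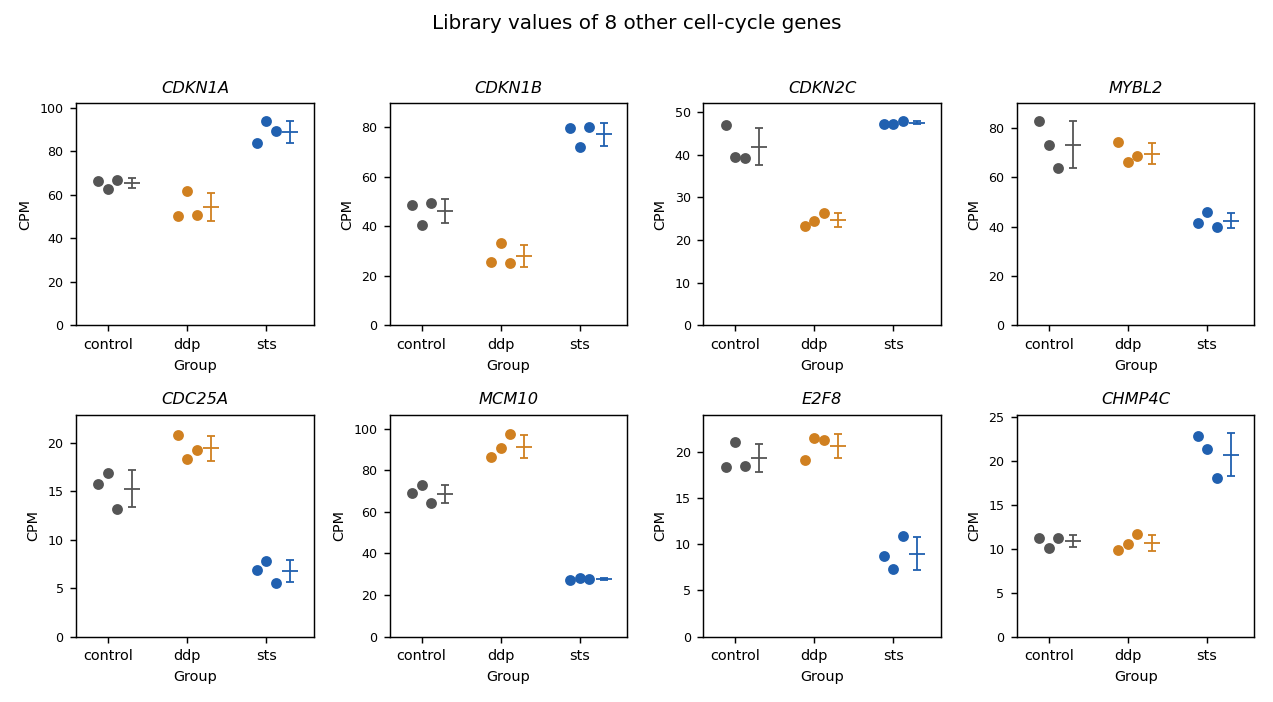
CPM of 8 other cell-cycle genes in each library (points) with the group mean and SD (bars); each vertical axis starts at 0. CDKN1B and CDKN1A fall in ddp and rise in sts, CDKN2C falls in ddp only, MCM10 rises in ddp and falls in sts, MYBL2, CDC25A and E2F8 fall in sts, and CHMP4C rises in sts.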

How the data were processed

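Total RNA of 9 A549 libraries was made into sequencing libraries (NEBNext Ultra, per the labels' protocols), with no statement that strand was kept. Per the submitters' processing notes the build was hg38 and the tools included HISAT2 2.0.5, StringTie 1.3.3b, featureCounts 1.5.0-p3 and limma; their roles are not given in the sources used here. The authors deposited whole-number read counts and FPKM values per gene. Counts were tested with edgeR 4.0.16 (R 4.3.3; quasi-likelihood, robust, TMM, filterByExpr, 9 libraries in 1 fit, no covariate), which gave log2 fold changes with standard errors (SE) and Benjamini-Hochberg adjusted p-values over all 16947 genes tested; the scripts were tested on simulated data. FPKM was used for levels between genes. Members and lists were chosen with earlier results of these data known. Values by library are given for AURKA, CDK1, CCNB1, PLK1, MKI67 and FOXM1, for the 2 genes with the largest called sts change in each role, for up to 10 called in ddp and for the extremes; from each other list, the 3 called genes of smallest p in sts, the 3 largest called ddp changes, CDKN1A, MYBL2 and LIN54 are named. AURKB, BUB3 and LIN37 fall outside this rule and were added with their values known. Alternatives were other scalings, filters, DESeq2 1.42.0, limma-voom 3.58.1, log2(FPKM + 1 or 0.1), a replicate block and leaving out libraries. Same-numbered libraries correlated at -0.0847 to 0.0547 after group means were removed, so numbers were not taken to pair them.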

Additional observations from a re-analysis of the deposited data

How the results depend on the processing

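Of the calls against control, 38 of 42 in sts and 2 of 13 in ddp (CENPI and KIF20A) passed in all 20 alternatives, as did 30 of 41 in sts against ddp. The number of genes lower in ddp was 2, and higher 0, on log2(FPKM + 1) with no filter; higher in sts against ddp were 0 there and with no filter on counts. Leaving out 1 library gave 7 to 13 lower and 0 to 1 higher in ddp, 39 to 41 lower in sts, and 36 to 41 lower and 0 to 1 higher in sts against ddp. The medians then ran from -0.142 to -0.078 in ddp, -0.51 to -0.465 in sts and -0.403 to -0.334 in sts against ddp. Over all genes, the 1410 lower and 1213 higher calls in ddp became 809 and 808 on log2(FPKM + 1), 825 and 813 with 0.1 added, and 442 and 345 with no filter; higher calls were 787 without control replicate 3. With no filter on FPKM, sts had 1770 lower and 1542 higher (2854 and 2698 in edgeR), and sts against ddp 2063 higher (3422). The cause was not tested. With the replicate block, 11, 41 and 37 of the mitosis genes were lower in ddp, sts and sts against ddp, and 1 higher in each.

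Sign changes touched only estimates that were not called. In ddp these were TPX2 (0.005487 with RLE scaling, 0.007361 with DESeq2, 0.007786 on log2(FPKM + 1), filtered or not, 0.007894 with 0.1 added, 0.000263 with the compared groups alone), BUB3 (-0.000964 upper-quartile, -0.00037 CPM filter), MKI67 (-0.003544 upper-quartile, -0.002482 CPM filter, -0.000677 limma-voom) and FOXM1 (0.001817 DESeq2). Upper-quartile scaling gave 0.008769 for NDC80 in sts and 0.02041 for CDC25C in sts against ddp. Leaving out 1 library, the estimates of these and other uncalled genes in ddp ran from -0.009743 to 0.01191 (BUB3), -0.06159 to 0.02876 (CENPK), -0.1147 to 0.3316 (SPC25), -0.02326 to 0.02215 (TPX2), -0.4213 to 0.0355 (PRC1), -0.07814 to 0.05801 (MKI67) and -0.09353 to 0.06102 (FOXM1). In sts they ran from -0.07224 to 0.003766 (NDC80) and -0.2141 to 0.4527 (NUSAP1), and in sts against ddp from -0.1388 to 0.01152 (CDK1), -0.09947 to 0.06857 (CDC25C) and -0.2981 to 0.1709 (PRC1). Low counts limit NUSAP1, PRC1 and SPC25. Whether the counts of NUSAP1 and PRC1 are low through depth, shared exons or low expression was not tested.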
